A study of Mus musculus with 20 samples.

Results

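The transcripts described here are those of 7 genes that code for receptors and a receptor adaptor best known from natural killer (NK) cells: *Klrb1c*, *Klrb1f*, *Klrk1*, *Klrd1*, *Klrc1*, *Cd160* and *Sh2d1b1*. They were followed in sorted CD4+ T cells, as 7 of the 16740 genes counted in spleen and peripheral lymph nodes (pLNs) and 7 of the 16784 counted in mesenteric lymph nodes (mLNs), and all 7 were tested in both tables. The genes were selected by symbol with the differences between DKO and WT libraries of these tables already known. Their DKO values are therefore given as a description, without p-values, and the number of them that passed the limits of the fit across all genes is printed only beside the share of all genes that did. Comparisons of Treg with CD4+Foxp3- cells and values of other genes of the same families were tested, although they came from the same libraries. The p-values of the 7 genes in those comparisons make no allowance for the choice.

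All mice were C57BL/6 and 14 weeks old. The WT controls carried *Foxp3*Cre, an allele that makes a YFP-Cre fusion protein wherever *Foxp3* is expressed, and the DKO mice (*Tet2/3* fl/fl *Foxp3*Cre) carried floxed *Tet2* and *Tet3* alleles in addition. Cre is made in *Foxp3*-expressing cells, so that the CD4+Foxp3- cells of DKO mice are not the intended target of the deletion and can be influenced by the DKO Treg cells around them or include cells that expressed *Foxp3* earlier. By fate mapping, the paper found more such former Treg cells in DKO than in heterozygous mice. It also reports greatly lowered *Tet2* and *Tet3* mRNA in DKO CD4+YFP- cells, by qPCR and by reads over the deleted exons. Another of its measurements found the deletion in CD4+YFP+ and not in CD4+YFP- cells. Treg cells (CD4+YFP+) and CD4+Foxp3- cells (CD4+YFP-) were sorted from spleen pooled with pLNs, with 2 replicates of each of the 4 groups, and from mLNs, with 3 replicates of each. In spleen and pLNs the DKO samples of both cell types came from the same 2 littermates, of which one had the more enlarged spleen, and the labels do not say which replicate number it has.

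The 8 spleen and pLN libraries held 13525932 to 15253141 reads counted to genes and the 12 mLN libraries 9998478 to 15449158. Levels are given as CPM, reads of a gene relative to all counted reads after TMM scaling, and as TPM, the authors' values that are also corrected for transcript length, where one gene is compared with another. *Foxp3* was at 153 CPM or more in every Treg library and at 2.75 CPM or less in every CD4+Foxp3- library. Whole-gene reads of *Tet2* and *Tet3* include exons outside a floxed region and do not check the deletion. *Tet2* was at 7.69 to 12.8 CPM in DKO against 10.4 to 10.8 CPM in WT Treg cells of mLN, and at 8.01 and 2.05 against 2.08 and 1.11 CPM in those of spleen and pLNs. *Tet3* was at 48.4 to 73.3 against 69.0 to 86.5 CPM in mLN, and at 61.0 and 38.1 against 31.0 and 30.6 CPM in spleen and pLNs. These are bulk samples, in which more cells that carry a transcript and more transcript per cell cannot be told apart.

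NK cells read the surface of other cells through paired activating and inhibitory receptors. Many belong to the C-type lectin-like family, whose genes lie side by side in the NK gene complex. *Klrb1c* codes for NK1.1 (NKR-P1C), an activating receptor used as an NK cell marker in C57BL/6 mice, and *Klrb1f* for its relative NKR-P1F, which recognizes Clec2 proteins. *Klrk1* codes for NKG2D, an activating receptor for stress-induced ligands. *Klrd1* codes for CD94, the partner chain of *Klrc1*-coded NKG2A, and the pair is an inhibitory receptor for Qa-1 (*H2-T23*). CD160 is an immunoglobulin-type receptor for HVEM (*Tnfrsf14*) and class I molecules. *Sh2d1b1* codes for EAT-2, a small SH2 adaptor that couples SLAM-family receptors to signaling. On T cells these proteins are best known from NKT cells, gamma-delta T cells and activated CD8+ T cells.

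In the NCBIM37 genome (mm9) with GENCODE annotation, the 5 lectin-like genes lie within the NK gene complex: *Klrb1c* on the minus strand of chr6:128728503-128739233, *Klrb1f* on the plus strand of chr6:128995919-129007489, *Klrd1* on the plus strand of chr6:129541800-129548793, *Klrk1* on the minus strand of chr6:129560341-129573882 and *Klrc1* on the minus strand of chr6:129616033-129628991. *Cd160* occupies the minus strand of chr3:96602686-96633274 and *Sh2d1b1* the plus strand of chr1:172207507-172216900. All 7 are annotated as protein-coding, and the counts cover whole genes. Reads were 50 bases long, and close relatives share stretches of that length. Of the 50-base windows of the longest transcript, 5.75% in *Klrb1c* (shared with *Klrb1a*, *Klrb1b* and *Klrb1-ps1*), 11.4% in *Sh2d1b1* (with *Sh2d1b2*) and 40.3% in *Klrc1* (with *Klrc2* and *Klrc3*) occur unchanged in another gene, and none in the other 4. With 2 mismatches allowed, as in the alignment, the shares within the receptor and adaptor families were 17.1%, 27.1% and 73.2%. The levels of *Klrc1*, and of the relatives *Sh2d1b2*, *Klrb1a*, *Klrb1b* and *Klrb1-ps1* beside *Sh2d1b1* and *Klrb1c*, are therefore uncertain, since each read was reported at no more than 1 place, and one that matches several genes equally well can have been counted for another of them.

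The sequences in front of *Sh2d1b1* and *Klrb1c*, which were low or absent in WT Treg cells and present in every DKO Treg library, are shown with those of their nearest relatives, *Klrb1a* and *Sh2d1b2*, whose reads cannot be fully separated from theirs, and with that of *Klrk1*, which stayed near 0 in Treg cells of both genotypes. Each is the 250 bases before the annotated start, from RefSeq (GRCm38.p6). Capitals mark TGTGGT or its reverse complement, the core letters of RUNX factor sites.
Sh2d1b1: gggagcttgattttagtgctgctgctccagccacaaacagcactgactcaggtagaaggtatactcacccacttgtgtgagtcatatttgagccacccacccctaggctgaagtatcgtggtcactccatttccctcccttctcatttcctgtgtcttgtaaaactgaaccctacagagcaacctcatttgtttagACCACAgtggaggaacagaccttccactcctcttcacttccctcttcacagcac
Sh2d1b2: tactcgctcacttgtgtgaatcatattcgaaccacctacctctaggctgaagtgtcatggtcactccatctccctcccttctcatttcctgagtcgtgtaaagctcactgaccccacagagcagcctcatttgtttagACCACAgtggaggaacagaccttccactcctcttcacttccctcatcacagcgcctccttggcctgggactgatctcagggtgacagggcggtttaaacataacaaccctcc
Klrb1c: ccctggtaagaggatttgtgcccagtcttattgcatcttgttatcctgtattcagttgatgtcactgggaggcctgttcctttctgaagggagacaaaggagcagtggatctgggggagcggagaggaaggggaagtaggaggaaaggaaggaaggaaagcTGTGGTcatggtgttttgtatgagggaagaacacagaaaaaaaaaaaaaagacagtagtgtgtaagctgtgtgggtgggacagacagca
Klrb1a: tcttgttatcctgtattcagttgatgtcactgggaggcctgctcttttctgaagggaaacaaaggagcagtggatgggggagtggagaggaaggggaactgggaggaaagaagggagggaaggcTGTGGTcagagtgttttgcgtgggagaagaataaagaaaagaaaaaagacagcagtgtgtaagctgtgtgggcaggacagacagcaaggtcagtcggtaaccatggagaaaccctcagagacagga
Klrk1: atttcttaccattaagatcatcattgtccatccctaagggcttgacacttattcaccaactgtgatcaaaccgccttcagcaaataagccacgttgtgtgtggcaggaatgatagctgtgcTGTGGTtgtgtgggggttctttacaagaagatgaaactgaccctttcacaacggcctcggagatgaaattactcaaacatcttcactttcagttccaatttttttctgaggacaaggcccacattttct
Their positions in GRCm38.p6 are chr1:170277068-170277317 (plus strand) for *Sh2d1b1*, chr1:170232621-170232870 (plus) for *Sh2d1b2*, chr6:128788642-128788891 (minus) for *Klrb1c*, chr6:128622935-128623184 (minus) for *Klrb1a* and chr6:129623865-129624114 (minus) for *Klrk1*. Aligned without end gap penalties, the *Sh2d1b1* and *Sh2d1b2* sequences were identical at 172 of 193 columns (89.1%) and the *Klrb1c* and *Klrb1a* sequences at 188 of 215 (87.4%). *Klrb1c* and *Klrb1b*, by contrast, shared 98 of 175 columns (56.0%), near the 54.3% of *Klrb1c* and *Klrk1*. Windows were found for 6 of the 7 genes, with 2 starts for *Cd160*. *Klrd1* had none. The RUNX letters occurred on either strand in 5 of these 6 genes, *Klrb1f* being the exception, and in 14.0% of the 32851 windows of all genes. The T-box letters GGTGTGA, in either direction, occurred in 1 of the 6 genes (*Cd160*, at one of its starts) and in 3.33% of all windows. CG dinucleotides, at which TET enzymes act on methylated cytosine, numbered from 1 (*Klrb1c*, *Klrc1* and *Sh2d1b1*) to 5 (*Cd160*) against a median of 6 over all windows, and 18.8% of windows had 1 or none. Methylation was not measured in these libraries, and a match of letters does not show a bound site.

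The 7 genes fell into 3 patterns over the groups. *Klrb1c* and *Sh2d1b1* were low or absent in WT Treg cells and present in every DKO Treg library. *Klrk1*, *Klrd1* and, in spleen and pLNs, *Klrc1* were transcripts of the CD4+Foxp3- cells, with few reads in Treg cells. *Cd160* and *Klrb1f* were expressed in all groups, with smaller differences.

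**Figure D1:**
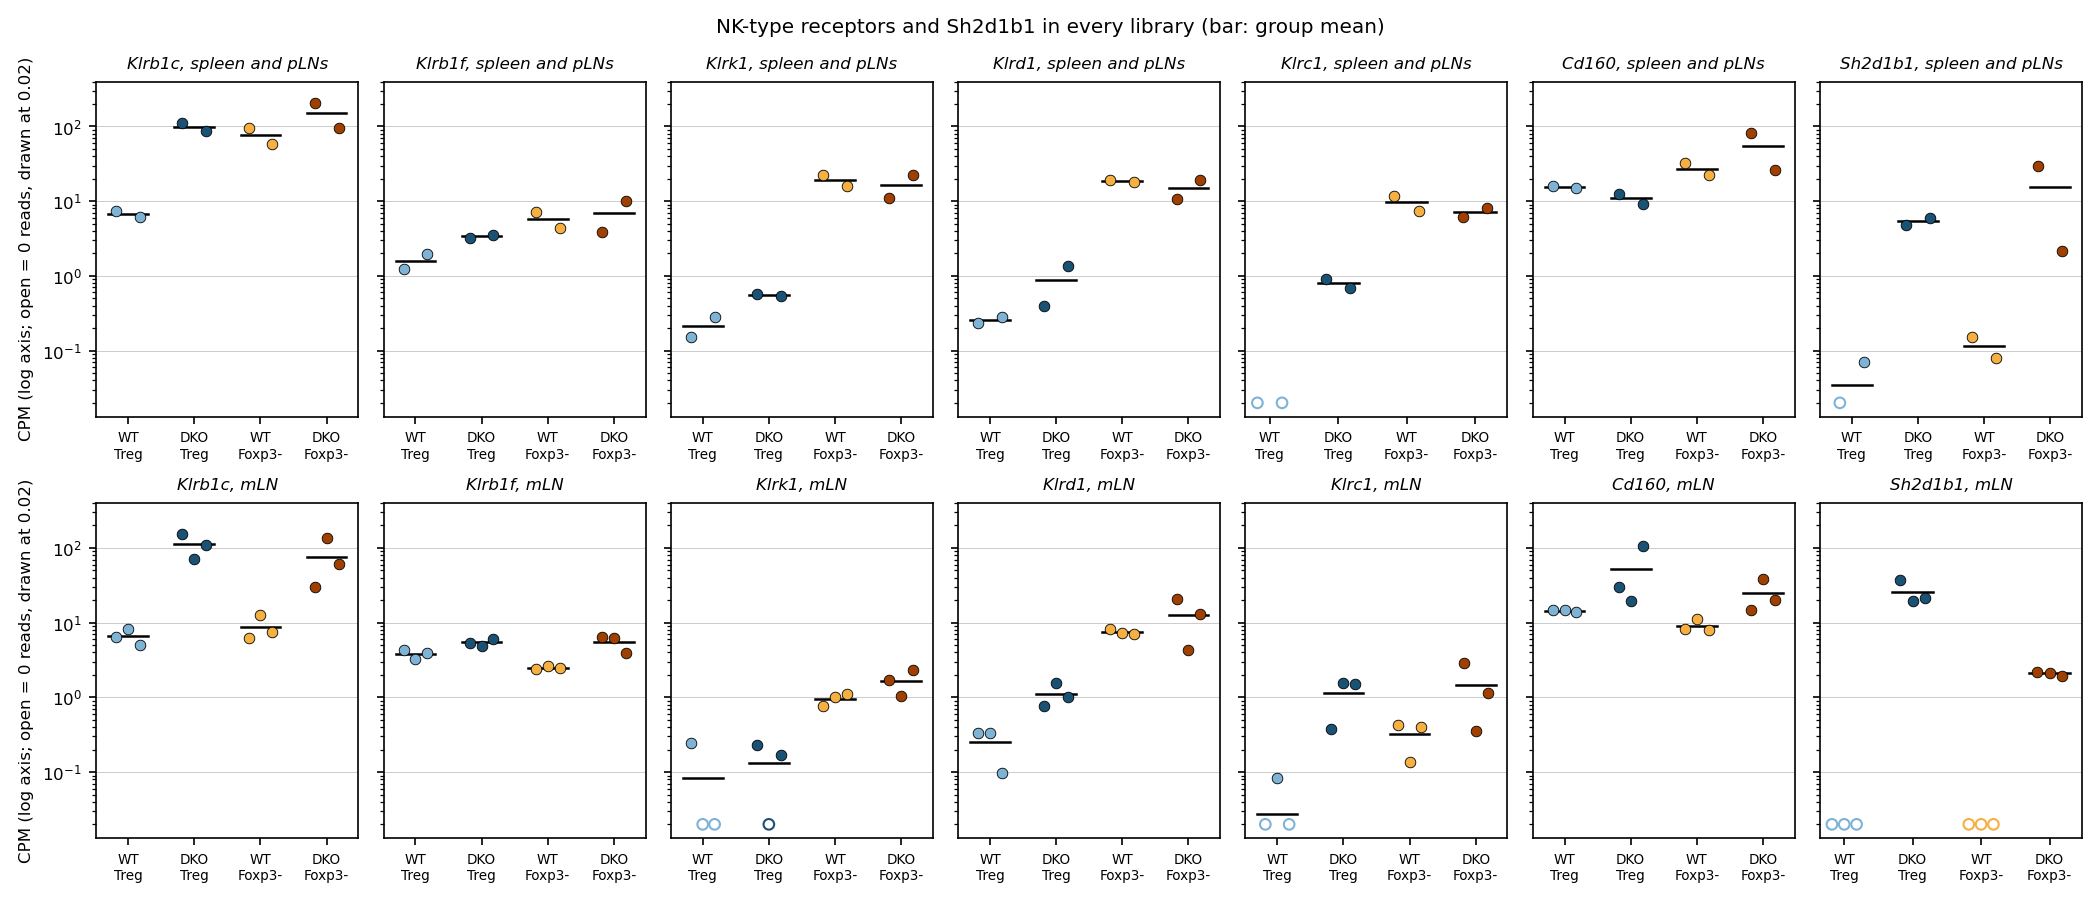
CPM (log axis) of the 7 genes in every library of spleen and pLNs (top, n = 2 per group) and mLN (bottom, n = 3 per group). Points are libraries, bars are group means, and open circles are libraries with 0 reads, drawn at 0.02. *Klrb1c* in mLN Treg cells lay between 5.02 and 8.19 CPM in WT and between 72.3 and 155 in DKO, and *Sh2d1b1* at 0 in WT and between 19.3 and 37.4 in DKO.

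*Klrb1c* was the most abundant of the 7 in DKO Treg cells. In spleen and pLNs the WT Treg libraries held 7.30 and 6.06 CPM and the DKO Treg libraries 110 and 86.4 CPM. In mLN it was at 6.41, 8.19 and 5.02 CPM in WT against 155, 72.3 and 110 CPM in DKO Treg cells. The groups did not overlap in either tissue, and the means differed 14.7-fold in spleen and pLNs (log2 fold change 3.88, SE 0.37) and 17.2-fold in mLN (4.09, SE 0.51). The lowest DKO Treg library was thus far above the highest WT Treg library. In the CD4+Foxp3- cells the tissues differed in their starting level. There, in spleen and pLNs, *Klrb1c* was at 95.2 and 57.5 CPM in WT against 209 and 96.8 CPM in DKO, a 2-fold difference of means in which the lower DKO library lay just above the higher WT library. In mLN it was at 6.21, 12.6 and 7.48 CPM in WT against 29.9, 135 and 61.8 CPM in DKO, 8.62-fold higher. DKO replicate 2 was the highest of these, and without it the log2 fold change was 2.36 instead of 3.09.

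*Klrb1f*, the NKR-P1 relative, was present at a few CPM in all 20 libraries. In spleen and pLN Treg cells it was at 1.23 and 1.95 CPM in WT against 3.26 and 3.55 CPM in DKO. In mLN Treg cells it was at 4.36, 3.31 and 3.93 CPM in WT against 5.42, 4.89 and 6.12 CPM in DKO. The genotypes did not overlap, with means 2.14-fold and 1.42-fold apart. For CD4+Foxp3- cells of mLN the WT libraries were at 2.38, 2.63 and 2.49 CPM and the DKO libraries at 6.39, 6.19 and 3.98 CPM, 2.2-fold higher. In spleen and pLNs the CD4+Foxp3- libraries overlapped, at 7.14 and 4.42 CPM in WT against 3.83 and 10 CPM in DKO.

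*Sh2d1b1*, the adaptor, was close to absent in WT cells. In mLN it had no read in any of the 6 WT libraries. In mLN DKO Treg cells it was at 37.4, 19.3 and 21.6 CPM (490, 268 and 258 reads), and in DKO CD4+Foxp3- cells at 2.22, 2.11 and 1.94 CPM (25, 30 and 22 reads). Against a floor of 3 reads per WT library, the level was at least 99.2-fold higher in DKO Treg cells and at least 8.29-fold higher in DKO CD4+Foxp3- cells. The 3 CD4+Foxp3- libraries from DKO mice lay close together and well below the Treg libraries.

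In spleen and pLNs *Sh2d1b1* had 0 and 1 read in the WT Treg libraries and 84 and 87 reads (4.81 and 5.94 CPM) in the DKO Treg libraries, a ratio of 154 with a 95% exact interval for counting error from 25.8 to 5790. In the CD4+Foxp3- cells it had 2 and 1 reads in WT, and 465 and 29 reads (29.2 and 2.15 CPM) in DKO, a ratio of 135 (48.7 to 697). Intervals of this kind cover counting error and not the spread between mice. DKO CD4+Foxp3- replicate 1 held most of these reads and was above both DKO Treg libraries, while replicate 2 was below both.

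*Klrk1* and *Klrd1* showed a different arrangement, with reads in the CD4+Foxp3- libraries of both genotypes. *Klrk1*, coding for NKG2D, was at 22.7 and 16.2 CPM in WT against 11.0 and 22.2 CPM in DKO CD4+Foxp3- cells of spleen and pLNs. In the Treg libraries of the same tissue it was at 0.154 and 0.278 CPM in WT against 0.572 and 0.546 CPM in DKO, which are 2, 4, 10 and 8 reads. In mLN the CD4+Foxp3- libraries were at 0.766, 1.01 and 1.10 CPM in WT against 1.69, 1.06 and 2.30 CPM in DKO, and the 6 Treg libraries had 0 to 3 reads. The genotypes overlapped in CD4+Foxp3- cells of both tissues.

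*Klrd1*, coding for CD94, was at 19.2 and 18.2 CPM in WT against 10.7 and 19.0 CPM in DKO CD4+Foxp3- cells of spleen and pLNs. In mLN CD4+Foxp3- cells it was at 8.26, 7.29 and 7.08 CPM in WT against 20.8, 4.29 and 13.2 CPM in DKO. The genotypes overlapped in both tissues, since one DKO library was below all WT libraries. In Treg cells *Klrd1* was low but higher in DKO. It was at 0.231 and 0.278 CPM in WT against 0.401 and 1.37 CPM in DKO Treg cells of spleen and pLNs, and at 0.329, 0.331 and 0.0984 CPM in WT against 0.764, 1.58 and 1.01 CPM in DKO Treg cells of mLN. The means differed 3.47-fold and 4.42-fold without overlap, on 1 to 22 reads per library.

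*Klrc1*, coding for the NKG2A chain that pairs with CD94, followed *Klrd1* in spleen and pLNs. It was at 11.9 and 7.32 CPM in WT against 6.22 and 8.08 CPM in DKO CD4+Foxp3- cells. It had no read in the WT Treg libraries and 16 and 10 reads (0.916 and 0.683 CPM) in the DKO Treg libraries, at least 3.64-fold higher against the floor of 3 reads per library. In mLN *Klrc1* was rare in every group. It had 0, 1 and 0 reads in WT Treg cells and 5, 22 and 18 reads in DKO Treg cells, a ratio of 42.0 with a counting interval from 6.79 to 1610. The CD4+Foxp3- libraries of mLN had 5, 2 and 4 reads in WT and 33, 5 and 13 in DKO, and these groups overlapped in CPM.

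*Cd160* was even in WT Treg cells, at 15.9 and 15.1 CPM in spleen and pLNs and at 14.7, 14.8 and 13.8 CPM in mLN. The DKO Treg libraries were at 12.5 and 9.28 CPM in spleen and pLNs, below both WT libraries, and at 29.6, 19.8 and 107 CPM in mLN, above all WT libraries. The difference of means was therefore of opposite sign in the tables (log2 fold change -0.50, SE 0.41, in spleen and pLNs and 1.85, SE 0.51, in mLN), and a test between tissues was not made because the tables were counted separately. DKO Treg replicate 3 gave most of the mLN difference, and without it the log2 fold change was 0.77. The same library was also the highest of the mLN DKO Treg libraries in *Blk* (771 reads against 348 and 98), a kinase gene in the gamma-delta T cell marker list, in *Fcer1g* (439 reads against 1 and 1) and in *Cd244* (51 reads against 3 and 11).

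*Cd160* in CD4+Foxp3- cells of spleen and pLNs was at 32.1 and 22.3 CPM in WT against 82.4 and 26.4 CPM in DKO. The groups overlapped, and the log2 fold change of 1 became -0.05 when DKO replicate 1 was left out. That library also had the most *Sh2d1b1*, *Klrb1c* (209 CPM) and *Blk* (433 reads against 19) among the CD4+Foxp3- libraries of its tissue. In mLN the CD4+Foxp3- libraries were at 8.26, 11.1 and 7.88 CPM in WT against 14.9, 38.6 and 20.3 CPM in DKO, 2.71-fold higher without overlap. The part of these single libraries' makeup in the *Cd160* differences was not tested.

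Treg cell markers other than *Foxp3* also had positive log2 fold changes in DKO CD4+Foxp3- cells, not all of which passed. The 4 markers listed (*Foxp3*, *Il2ra*, *Ikzf2* and *Ctla4*) summed to 66.1 to 76.0 CPM in WT against 106 to 226 CPM in DKO CD4+Foxp3- cells of mLN, and to 118 to 130 against 127 to 558 CPM in those of spleen and pLNs. In each tissue 3 of the 4 were higher in DKO and *Foxp3* was not. *Ctla4*, coding for an inhibitory receptor (log2 fold change 1.89, SE 0.33, edgeR adjusted p = 0.00979), and *Ikzf2*, coding for the transcription factor Helios (0.93, SE 0.18, edgeR adjusted p = 0.016), rose in mLN, and edgeR called none in spleen and pLNs. The part of Treg cells, or of cells that once expressed *Foxp3*, in the *Klrb1c*, *Klrb1f*, *Sh2d1b1* and *Cd160* levels of these libraries was not tested.

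A gene was called where edgeR gave an adjusted p no higher than 0.05 together with a 1.5-fold or larger change. By this rule 3 of the 7 genes were called in DKO against WT Treg cells of spleen and pLNs (*Sh2d1b1*, *Klrb1c* and *Klrc1*, all higher), where 1.74% of all genes tested were. In Treg cells of mLN 4 of the 7 were called (*Sh2d1b1*, *Cd160*, *Klrb1c* and *Klrc1*, all higher) and 11.9% of all genes. Among CD4+Foxp3- cells *Sh2d1b1* was called in spleen and pLNs, where 0.819% of all genes were, and *Sh2d1b1*, *Klrb1c* and *Klrb1f* in mLN, where 3.43% were. Nothing is read from these counts, since the genes were chosen on this comparison. In spleen and pLN Treg cells the count was 0 when WT replicate 1, WT replicate 2 or DKO replicate 1 was left out, and in CD4+Foxp3- cells 0 when either WT replicate was and 3 without DKO replicate 2. In mLN it was 2 without WT Treg replicate 1, and 1 without WT CD4+Foxp3- replicate 1. For CD4+Foxp3- cells a fit of only the compared groups called 0 in both tissues, and the replicate block 0 in spleen and pLNs. In Treg cells of spleen and pLNs the block lost the call of *Sh2d1b1*. There a filter on low counts left 1 call in Treg and 0 in CD4+Foxp3- cells.

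**Figure D2:**
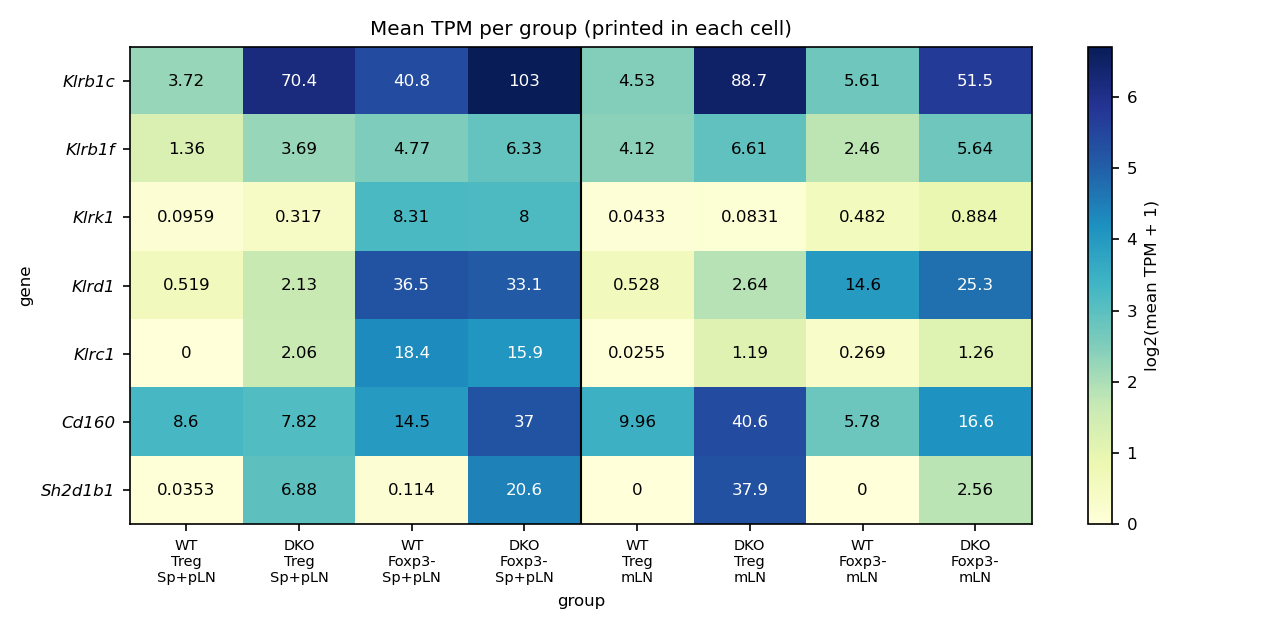
Mean TPM of the 7 genes (rows) in the 8 groups (columns, spleen and pLNs left of the line, mLN right), printed in each cell and colored by log2(TPM + 1). *Cd160* leads in WT Treg cells (8.60 and 9.96 TPM), and *Klrb1c* leads in DKO Treg cells (70.4 and 88.7 TPM).

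Per length, *Cd160* was the most abundant of the 7 in WT Treg cells, with 8.60 ± 0.430 TPM in spleen and pLNs (SD, n = 2) and 9.96 ± 0.286 TPM in mLN (SD, n = 3), followed by *Klrb1c* at 3.72 ± 0.540 and 4.53 ± 1.09 TPM. In mLN *Klrb1c* and *Klrb1f* (4.12 ± 0.5 TPM) lay within their spread. In DKO Treg cells *Klrb1c* came first, with 70.4 ± 23.9 and 88.7 ± 35.6 TPM, although in mLN its range overlapped that of *Cd160*. It was followed by *Cd160* (7.82 ± 2.96 TPM) and *Sh2d1b1* (6.88 ± 0.180 TPM) in spleen and pLNs, and by the same pair in mLN (40.6 ± 36.9 and 37.9 ± 15.8 TPM), neighbors whose ranges overlapped in both tissues. In WT CD4+Foxp3- cells of spleen and pLNs *Klrb1c* (40.8 ± 15.7 TPM) and *Klrd1* (36.5 ± 2.74 TPM) led and overlapped, ahead of *Klrc1* (18.4 ± 6.91 TPM) and *Cd160* (14.5 ± 4.22 TPM). In WT CD4+Foxp3- cells of mLN *Klrd1* led alone, with 14.6 ± 0.866 TPM against 5.78 ± 1.23 TPM of *Cd160* and 5.61 ± 2.28 TPM of *Klrb1c*. *Klrc1* was at 0.269 ± 0.132 TPM in the node, far below *Klrd1*, whereas in spleen and pLNs it was next below *Klrd1*. The tables did not treat *Klrc1* alike. It had 9.62 CPM for 18.4 TPM in spleen and pLNs, but 0.32 CPM for 0.269 TPM in mLN. *Klrd1* had 18.7 CPM for 36.5 TPM and 7.54 CPM for 14.6 TPM. Reads of *Klrc1* can also be those of *Klrc2* or *Klrc3*, so that the tissues cannot be compared for it here.

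Whether Treg or CD4+Foxp3- cells carry these transcripts was compared within each genotype. In WT cells of spleen and pLNs 4 of the 7 genes were called, all lower in Treg cells, against 4% of all genes. *Klrk1* was 90.1-fold lower (log2 fold change -6.42, SE 0.49, edgeR adjusted p = 2.57e-05), *Klrd1* 73.6-fold lower (-6.15, SE 0.55, edgeR adjusted p = 6.81e-05) and *Klrb1c* 11.4-fold lower (-3.52, SE 0.36, edgeR adjusted p = 0.000182). *Klrc1*, without a read in WT Treg cells, was at least 43.8-fold lower (edgeR adjusted p = 5.48e-05). *Klrb1f* (-1.85, SE 0.48, edgeR adjusted p = 0.0559) and *Cd160* (-0.81, SE 0.40, edgeR adjusted p = 0.413) did not pass, although their libraries did not overlap, and *Sh2d1b1* was at or under 2 reads in each of these 4 libraries. Leaving out any one library changed none of the 4 calls. In the same comparison 11 of the 13 NK cell markers described below were lower in Treg cells, with 6 called, and 2 were higher. Of the 5 NKT cell markers 4 were called lower, and *Il2rb* was called higher. The part of such cells in these differences was not tested.

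In DKO cells of spleen and pLNs 4 of the 7 were called, again all lower in Treg cells, against 3.77% of all genes. *Klrk1* (29.6-fold, edgeR adjusted p = 8.74e-05), *Klrd1* (16.8-fold, edgeR adjusted p = 0.000386) and *Klrc1* (8.94-fold, edgeR adjusted p = 0.00166) were among them as in WT. *Klrb1c*, at 98.2 ± 16.7 CPM in DKO Treg and 153 ± 79.4 CPM in DKO CD4+Foxp3- cells (SD, n = 2), was no longer called (log2 fold change -0.64, SE 0.31, edgeR adjusted p = 0.392), and the libraries overlapped. *Cd160* was the other gene called (-2.32, SE 0.41, edgeR adjusted p = 0.00702). Its call was lost without DKO Treg replicate 1 or 2 (edgeR adjusted p = 0.14 and 0.103), and without DKO CD4+Foxp3- replicate 1 the difference was -1.27. The sign of *Sh2d1b1* depended on one library, with a log2 fold change of -1.55 that became 1.32 without DKO CD4+Foxp3- replicate 1 and -2.44 without replicate 2, when it was called. Without replicate 2 *Klrb1c* was called as well (-1.09), and without replicate 1 *Klrb1f* was (-1.55).

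In WT cells of mLN 2 of the 7 were called, both lower in Treg cells, against 10.1% of all genes, and 5 in a fit of only the compared groups. *Klrd1* was 29.9-fold lower (log2 fold change -4.81, SE 0.61, edgeR adjusted p = 0.000205) and kept its call without any one library. *Klrk1* rested on 3 reads in Treg and 35 in CD4+Foxp3- cells, a ratio of 0.0857 with a counting interval from 0.0179 to 0.289 (edgeR adjusted p = 0.0228), and the call was lost without WT Treg replicate 2 or 3 or WT CD4+Foxp3- replicate 2 or 3. *Klrb1c*, which was called in spleen and pLNs, had a log2 fold change of -0.44 (SE 0.52, edgeR adjusted p = 0.648). In WT CD4+Foxp3- cells it was at 76.3 ± 26.7 CPM in spleen and pLNs (SD, n = 2) and at 8.77 ± 3.39 CPM in mLN (SD, n = 3), while in WT Treg cells it was at 6.68 ± 0.881 and 6.54 ± 1.59 CPM. These levels come from tables counted separately and were not tested against each other.

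In DKO cells of mLN 3 of the 7 were called, against 11.2% of all genes. *Klrd1* (11.4-fold, edgeR adjusted p = 0.000416) and *Klrk1* (12.7-fold, edgeR adjusted p = 0.007) were lower in Treg cells. *Sh2d1b1* was 12.5-fold higher in Treg cells (log2 fold change 3.64, SE 0.30), at 26.1 ± 9.87 against 2.09 ± 0.138 CPM (SD, n = 3), and kept its call without any one library. Its p-value is not given, since its high DKO Treg values were known when the gene was chosen. The same libraries had 3630 to 4281 *Foxp3* reads in DKO Treg and 3 to 31 in DKO CD4+Foxp3- cells. *Klrb1c* and *Cd160* had log2 fold changes of 0.57 and 1.07 that did not pass (edgeR adjusted p = 0.409 and 0.162). Without DKO CD4+Foxp3- replicate 2 both were called, higher in Treg cells, at 1.26 and 1.53, and without DKO Treg replicate 2 *Cd160* was, at 1.47.

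**Figure D3:**
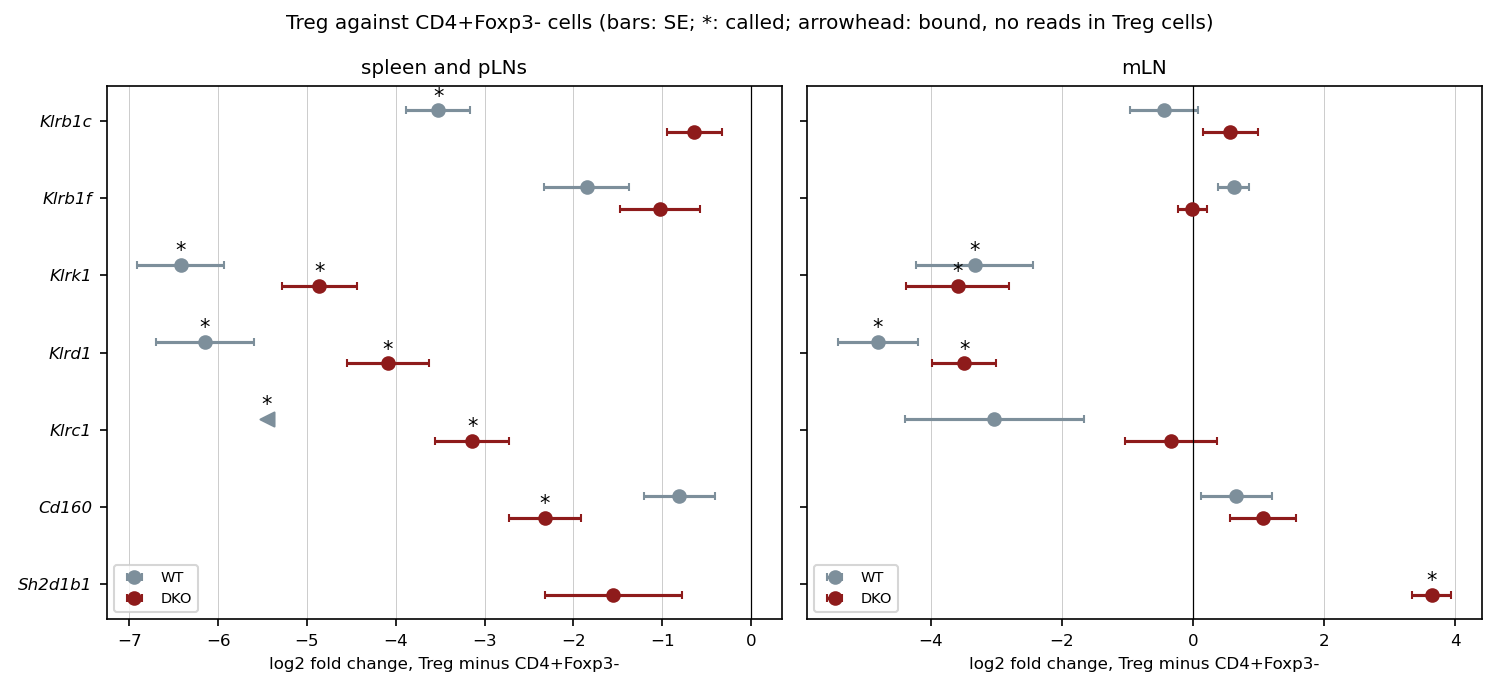
Log2 fold change of Treg over CD4+Foxp3- cells for the 7 genes in WT (grey) and DKO (red), with SE as bars, in spleen and pLNs (left) and mLN (right). Asterisks mark calls, the arrowhead is the bound of at least 43.8-fold for *Klrc1*, and comparisons with at most 3 reads in every library are left out. *Klrk1* and *Klrd1* lie left of 0 throughout, and *Sh2d1b1* of mLN DKO cells lies at 3.64.

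The receptors signal through small adaptors, of which DAP10 and DAP12 carry the signal of NKG2D. *Hcst*, coding for DAP10, had a log2 fold change of -0.89 (SE 0.26, edgeR adjusted p = 0.0936) in DKO against WT Treg cells of spleen and pLNs and of -0.57 (SE 0.11, edgeR adjusted p = 0.00321) in mLN, the latter under the fold change limit. *Tyrobp*, coding for DAP12, was rare, with 4 or fewer reads in every Treg library of mLN. It had, in spleen and pLNs, 1 and 4 reads in WT and 20 and 10 in DKO Treg cells, and 13 and 27 in WT and 106 and 88 in DKO CD4+Foxp3- cells, which did not pass (edgeR adjusted p = 0.0971 and 0.09). Of 17 adaptor and signaling genes listed, 16 could be tested for spleen and pLNs and all 17 for mLN. In DKO Treg cells 1 was called in spleen and pLNs, where 1.74% of all genes were, and 4 in mLN, where 11.9% were. The median log2 fold changes of the list, 0.28 and 0.14, stood against 0.018 and 0.005 over all genes tested.

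*Plcg2*, coding for the phospholipase C gamma form best known from B and NK cells, rose in DKO Treg cells of both tissues. It had 4 and 2 reads in WT and 106 and 25 in DKO Treg cells of spleen and pLNs (log2 fold change 4.10, SE 0.72, edgeR adjusted p = 0.0181), and 4, 5 and 1 reads in WT and 483, 232 and 267 in DKO Treg cells of mLN (6.40, SE 0.71, edgeR adjusted p = 0.000131). It also rose in CD4+Foxp3- cells of mLN (3.10, SE 0.58, edgeR adjusted p = 0.0133), where DKO replicate 2 had 297 reads and the others 55 and 66. *Sh2d1b2*, the neighbor and close copy of *Sh2d1b1*, coding for the adaptor ERT, had no read in the 6 mLN WT libraries and 13, 12 and 9 reads in DKO Treg cells, at least 3.31-fold higher against the floor (edgeR adjusted p = 0.00234). The same libraries held 490, 268 and 258 reads of *Sh2d1b1*, of whose 50-base windows 11.4% also occur in *Sh2d1b2*, so that these few reads can be those of *Sh2d1b1*, which was not tested. *Sh2d1a*, coding for SAP, the T cell member of the same adaptor family, was at 101 CPM in WT against 111 CPM in DKO Treg cells of mLN (edgeR adjusted p = 0.523) and rose in CD4+Foxp3- cells there (0.64, SE 0.15, edgeR adjusted p = 0.0302). *Cd247*, coding for the CD3 zeta chain, fell in mLN DKO Treg cells (-0.85, SE 0.16, edgeR adjusted p = 0.00259). *Fcer1g* was called on the single library named above.

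Of 17 genes for ligands of these receptors, 10 could be tested for spleen and pLNs and 12 for mLN. The single call was in Treg cells of mLN, where 11.9% of all genes were called. *Tnfrsf14*, coding for HVEM, the ligand of CD160, rose in mLN DKO Treg cells from 23.2 to 35.2 CPM (log2 fold change 0.60, SE 0.11, edgeR adjusted p = 0.00299), with the same log2 fold change of 0.60 in spleen and pLNs (SE 0.18, edgeR adjusted p = 0.0933). *H2-T23*, coding for the Qa-1 ligand of CD94/NKG2A, was at 545 CPM in WT against 385 CPM in DKO Treg cells of spleen and pLNs (edgeR adjusted p = 0.196) and at 397 and 310 CPM in mLN (edgeR adjusted p = 0.0641).

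The rest of the lectin-like family was compared as a list of 33 genes, of which the table of spleen and pLNs held 18 and that of mLN 17. In DKO Treg cells of spleen and pLNs 3 were called, 2 higher and 1 lower, and in mLN 5, of which 4 were higher and 1 lower. Of all genes 1.74% and 11.9% were called. In both tissues 11 genes of the list had no more reads than the floor in either group. The fitted median log2 fold change was 1.56 and 1.81, against 0.018 and 0.005 over all genes tested, and 0 in both tissues with these genes set at 0 and those lacking reads in one group at their bound. *Klrb1a*, an NKR-P1 relative of *Klrb1c*, rose from 10 and 5 reads in WT to 97 and 152 in DKO Treg cells of spleen and pLNs (3.83, SE 0.70, edgeR adjusted p = 0.0221) and from 3, 3 and 0 reads to 522, 291 and 191 in mLN (7.12, SE 0.91, edgeR adjusted p = 0.000339). *Klrb1b*, an inhibitory NKR-P1 receptor, rose from 0 and 1 read to 58 and 41 (edgeR adjusted p = 0.00129) and from 5, 3 and 4 reads to 71, 38 and 23 (3.23, SE 0.45, edgeR adjusted p = 0.000489). *Klri2* rose in mLN from no read to 15, 24 and 8, at least 4.48-fold against the floor (edgeR adjusted p = 0.00494). *Klrg1*, an inhibitory receptor of effector Treg cells, went the other way. It fell 4.51-fold in spleen and pLNs (81.1 and 72.5 CPM in WT against 24.1 and 9.97 CPM in DKO, edgeR adjusted p = 0.00645). In mLN it fell 12.2-fold (46.3, 55.7 and 52.7 CPM against 2.44, 7.83 and 2.43 CPM, edgeR adjusted p = 0.000123).

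Among CD4+Foxp3- libraries none of the 18 genes of that list was called by edgeR in spleen and pLNs, and 1 by DESeq2. In mLN *Klrb1a* was called (log2 fold change 3.33, SE 0.74, edgeR adjusted p = 0.0275). Its DKO libraries had 28, 237 and 33 reads against 7, 12 and 8 in WT, and the call was lost without DKO replicate 2 and without any one of the WT replicates. The calls in Treg cells of spleen and pLNs numbered 0 without either WT replicate and 1 without DKO replicate 1. *Klrc2*, coding for the CD94 partner NKG2C, and *Klre1*, another lectin-like receptor gene, had at most 5 reads in any Treg library of either tissue or genotype, and no call in DKO against WT cells. Both were called lower in Treg than in CD4+Foxp3- cells of WT spleen and pLNs, and *Klrc2* also in DKO. A test of whether the DKO difference itself differed between Treg and CD4+Foxp3- cells passed for no gene of the lists of receptors, adaptors, ligands and transcription factors (lowest edgeR adjusted p = 0.0575 for *Runx3* in mLN).

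**Figure D4:**
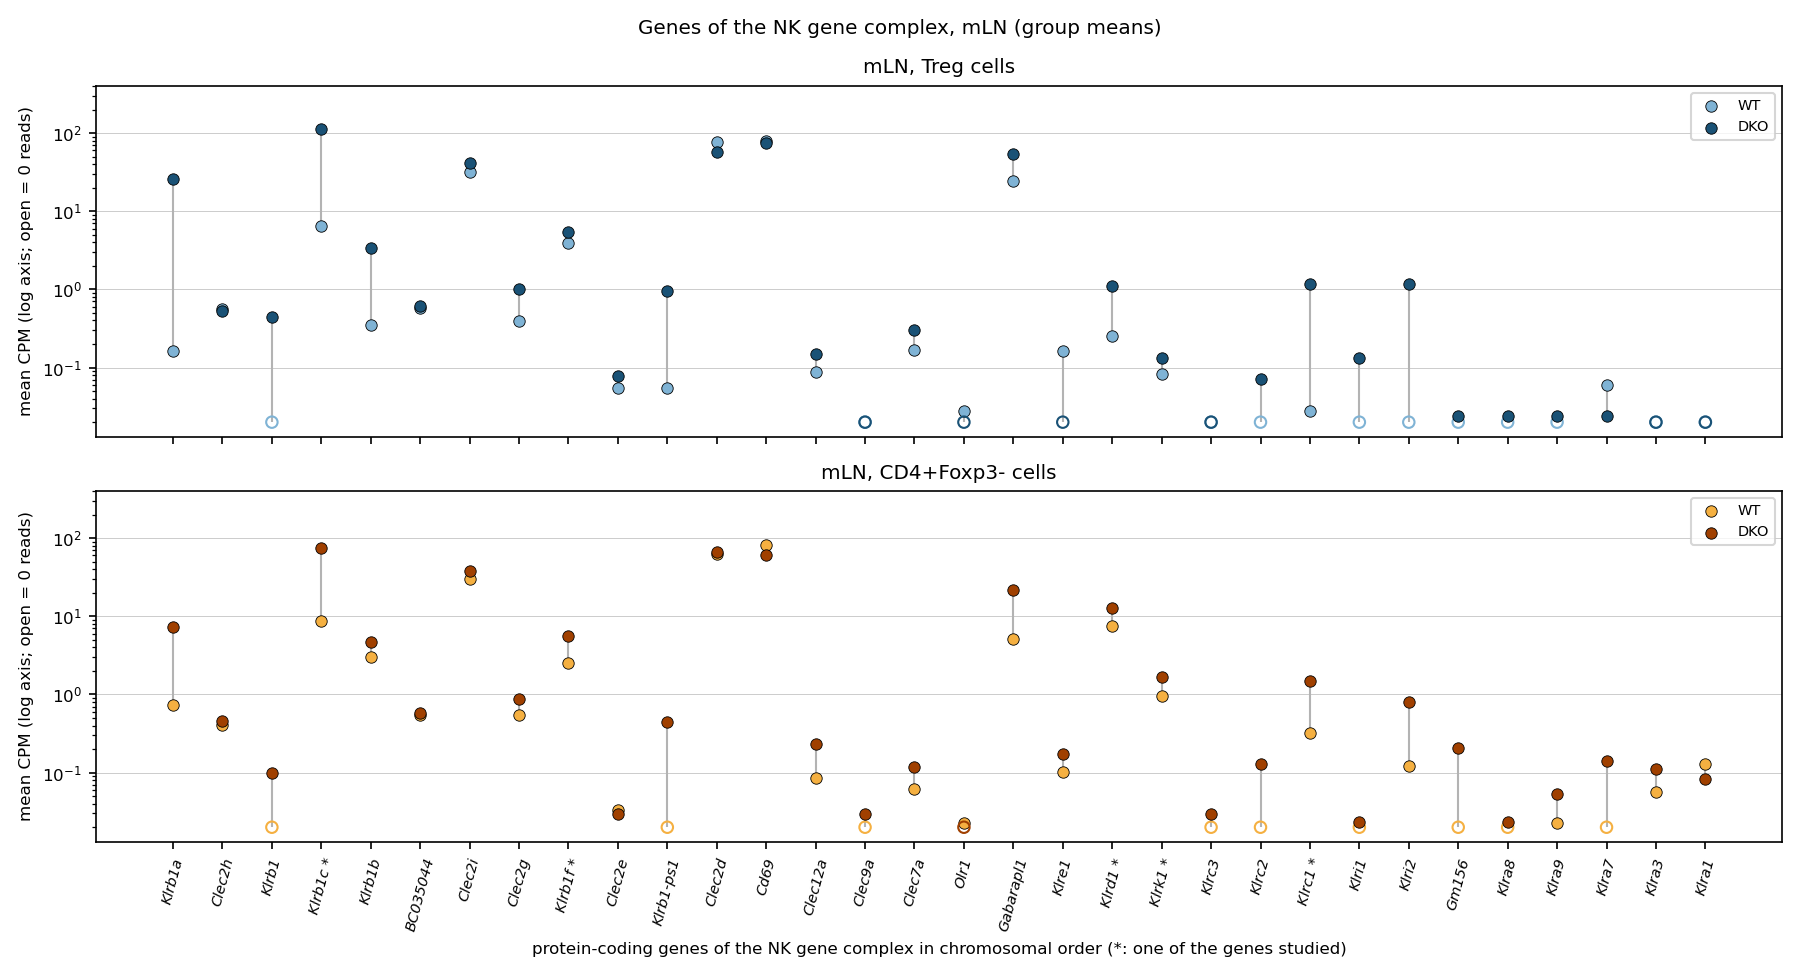
Mean CPM (log axis) of the 32 protein-coding genes counted in the NK gene complex of mLN cells, in chromosomal order, in Treg (top) and CD4+Foxp3- cells (bottom), for WT (light) and DKO (dark). Open circles are groups without reads, and asterisks mark 5 of the 7 genes described. *Klrb1a* and *Klrb1c* show the widest gaps among genes with more than 10 CPM in DKO Treg cells, and *Clec2d* and *Cd69*, which lie between *Klrb1f* and *Klrd1*, show little.

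Along the NK gene complex (chr6:128559245-130336892 in NCBIM37, from *Klrb1a* to *Klra1*) 33 of 47 annotated protein-coding genes were in the table of spleen and pLNs and 32 in that of mLN. Beside the 5 genes of this group, 2 of the other 28 were called in DKO Treg cells of spleen and pLNs (1.74% of all genes) and 6 of the other 27 in mLN (11.9% of all genes), all higher. The former were *Klrb1a* and *Klrb1b*, and the latter also included *Klrb1*, *Klrb1-ps1*, *Klri2* and *Gabarapl1*, an autophagy gene and no receptor. For CD4+Foxp3- cells 0 of 28 and 2 of 27 were called (0.819% and 3.43% of all genes), the latter being *Klrb1a* and *Gabarapl1*. *Gabarapl1* rose from 24.2 ± 1.93 to 53.3 ± 10.2 CPM in Treg (SD, n = 3, edgeR adjusted p = 0.0153) and from 5.05 ± 0.712 to 22.0 ± 11.2 CPM in CD4+Foxp3- cells of mLN (edgeR adjusted p = 0.00651). Genes of other function between the receptors did not all share this. *Cd69*, coding for an early activation receptor, was at 80 ± 5.53 CPM in WT against 73.7 ± 18 CPM in DKO Treg cells of mLN (SD, n = 3, edgeR adjusted p = 0.624), and *Clec2d*, coding for a ligand of the inhibitory NKR-P1 receptor, at 76.3 ± 5.31 and 57.4 ± 22.8 CPM (edgeR adjusted p = 0.273). *Cd69*, *Clec2d*, *Klrb1*, *Klrb1-ps1* and *Gabarapl1* were named after their values were seen, as were *Blk*, *Sox13*, *Il2rb*, *Zbtb16* and the *Foxp3*, *Tet2* and *Tet3* reads.

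Among 15 immunoglobulin-type and SLAM-family receptors, of which 14 were tested in each tissue, 2 were called in DKO Treg cells of spleen and pLNs and 6 in mLN. The share over all genes was 1.74% and 11.9%. *Slamf1*, a SLAM receptor to which EAT-2 can bind, fell in both (log2 fold change -0.99, SE 0.17, edgeR adjusted p = 0.0143 in spleen and pLNs; -1.36, SE 0.15, edgeR adjusted p = 0.00013 in mLN). *Crtam*, a receptor of activated cytotoxic lymphocytes, rose in mLN (3.41, SE 0.65, edgeR adjusted p = 0.00321), and *Cd226*, the activating receptor DNAM-1, fell there (-1.41, SE 0.35, edgeR adjusted p = 0.0132). *Cd244*, the NK cell receptor 2B4, was called in mLN on 3, 11 and 51 reads against none, at least 6.71-fold higher (edgeR adjusted p = 0.0114). *Tigit*, an inhibitory receptor, rose in CD4+Foxp3- cells of mLN (2.59, SE 0.49, edgeR adjusted p = 0.0152). Its DKO libraries were at 27.9, 187 and 83.3 CPM, with replicate 2 the highest, against 17.6, 19.0 and 12.9 CPM in WT.

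Transcription factors of NK and innate-like T cells did not change together. Of 13 listed, 12 were tested in each tissue. None was called in spleen and pLNs in either cell type, and in DKO Treg cells of mLN, where 11.9% of all genes were called, 3 rose and 2 fell. *Runx3*, which is required for cytotoxic lineage genes, rose from 47.2 to 79.1 CPM (log2 fold change 0.74, SE 0.11, edgeR adjusted p = 0.00058) and *Tox* by 0.74 (SE 0.22, edgeR adjusted p = 0.0349), while *Bcl11b*, which holds T cells to their lineage, fell (-1.08, SE 0.24, edgeR adjusted p = 0.00732), as did *Prdm1* (-1.33, SE 0.31, edgeR adjusted p = 0.0092). *Eomes*, which drives NK cell maturation, was at 3.67 CPM in WT against 5.31 CPM in DKO Treg cells of mLN (edgeR adjusted p = 0.503). *Nfil3*, an early NK lineage factor, rose in CD4+Foxp3- cells of mLN (2.19, SE 0.46, edgeR adjusted p = 0.0215).

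Markers of other cell types were read in the same libraries. Of 14 NK cell markers 13 were in the tables, and their summed level was 16.5 to 19.1 CPM in WT against 31.3 to 53.0 CPM in DKO Treg cells of spleen and pLNs, and 19.6 to 25.1 and 34.1 to 114 CPM in mLN. The CD4+Foxp3- libraries had 96.8 to 98.7 and 50.7 to 125 CPM in spleen and pLNs, and 86.9 to 102 and 29.3 to 99.4 CPM in mLN. *Klra9*, *Klre1* and *S1pr5* had no read in WT Treg cells of spleen and pLNs, and *Klra8*, *Klra9*, *Klri2*, *Ncam1* and *S1pr5* none in those of mLN. *Klra8* had none in CD4+Foxp3- cells of spleen and pLNs, and *Klre1* none in DKO Treg cells of mLN. In DKO against WT Treg cells all 13 were higher in spleen and pLNs and 12 of 13 in mLN, of which 2 (*Gzma* and *Ncr1*) and 3 (*Fcer1g*, *Itga2* and *Klri2*) were called, against 1.74% and 11.9% of all genes. With genes that lack reads set at their bound against the floor, or at 0 where both groups were at or under it, the median log2 fold change was 1.48 and 1.26, against 0.018 and 0.005 over all genes tested as fitted. In CD4+Foxp3- cells 7 of 13 were higher in spleen and pLNs, where *Ncr1* was called, and 10 of 13 in mLN, where edgeR called none. *Gzma*, coding for a granzyme of cytotoxic cells, rose 5.79-fold in Treg cells of spleen and pLNs (log2 fold change 2.53, SE 0.48, edgeR adjusted p = 0.0259), and *Itga2*, coding for the integrin CD49b, rose 2.75-fold in those of mLN (1.45, SE 0.44, edgeR adjusted p = 0.0333). *Ncr1*, coding for NKp46, was at 1 read in each WT and 44 and 33 reads in the DKO Treg libraries of spleen and pLNs (edgeR adjusted p = 0.0122) and at 6 in each WT and 33 and 79 in the DKO CD4+Foxp3- libraries (edgeR adjusted p = 0.0438). In mLN *Ncr1* had 12 or fewer reads in every library, against 1006 to 2027 of *Klrb1c* in DKO Treg cells.

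*Blk* and *Sox13* were the 2 of 6 gamma-delta T cell markers in the tables. Their sum was 0.493 to 1.08 CPM in WT against 7.19 to 64.7 CPM in DKO Treg cells of mLN, nearly all of it *Blk*, and *Sox13* had at most 2 reads in any library. In spleen and pLNs it was 0.487 to 0.922 and 1.30 to 3.43 CPM in Treg cells, and 0.760 to 0.804 and 1.41 to 27.2 CPM in CD4+Foxp3- cells. The mLN CD4+Foxp3- libraries had 0.17 to 0.399 CPM (WT) and 0.211 to 1.06 CPM (DKO). The 5 NKT cell markers summed to 1580 to 1640 CPM in WT against 1220 to 1380 CPM in DKO Treg cells of spleen and pLNs, and to 1020 to 1060 and 836 to 1080 CPM in mLN. Nearly all of it was *Il2rb*, a cytokine receptor gene that Treg cells express themselves (mean 1550 and 1270 CPM in spleen and pLNs, 981 and 949 CPM in mLN). In Treg cells of each tissue 2 of the 5 were higher in DKO and 3 lower, with *Fcer1g* in mLN the one called. *Zbtb16*, coding for the NKT cell factor PLZF, was at 0.538 and 0.418 CPM in WT against 1.09 and 0.819 CPM in DKO Treg cells of spleen and pLNs (edgeR adjusted p = 0.385). The same sum was 840 to 1050 and 940 to 1030 CPM in CD4+Foxp3- cells of spleen and pLNs, and 179 to 240 and 241 to 546 CPM in those of mLN. The 6 myeloid markers summed to 1.41 to 3.37 CPM in WT and 3.51 to 43.9 CPM in DKO Treg cells of mLN, where *Fcer1g*, which is also in the NK and NKT lists, gave 36.8 CPM in replicate 3, and to 1.46 to 2.58 and 9.42 to 23.1 CPM in those of spleen and pLNs. The 5 B cell markers summed to 27.7 to 29.6 and 9.83 to 13.2 CPM in Treg cells of spleen and pLNs, and to 26.8 to 35.4 and 8.81 to 20.8 CPM in those of mLN. The fall was that of *Cd79b*, coding for a chain of the B cell receptor (log2 fold change -2.09, SE 0.25, edgeR adjusted p = 0.00246, and -1.64, SE 0.51, edgeR adjusted p = 0.0376). The other 4 B cell markers were higher in DKO Treg cells of both tissues, with *Ms4a1* called in spleen and pLNs (4 reads in WT and 117 in DKO over the group, edgeR adjusted p = 0.0376) and *Pax5* in mLN (0 and 56 reads, edgeR adjusted p = 0.0118). Of the 6 myeloid markers 5 were higher in DKO Treg cells of spleen and pLNs and 4 in those of mLN. *Itgam*, coding for CD11b, rose 9.47-fold and 13.2-fold (edgeR adjusted p = 0.00572 and 0.00678), and *Csf1r* went from 2 to 65 reads in spleen and pLNs (edgeR adjusted p = 0.041). In CD4+Foxp3- cells all 5 B cell and all 6 myeloid markers were higher in DKO in both tissues, and edgeR called none. *Lyz2*, the defining myeloid marker, had 11 reads in the WT and 62 in the DKO Treg group of spleen and pLNs (edgeR adjusted p = 0.14). In mLN Treg cells it went the other way, with 27, 10 and 9 reads in WT and 4, 7 and 10 in DKO (log2 fold change -1.26, SE 0.58, edgeR adjusted p = 0.153). *Cd79a*, the defining B cell marker, had 8, 13 and 4 reads there in WT and 5, 48 and 10 in DKO. *Cd8a* had 7 or fewer reads in every library, and *Cd8b1* fell in mLN DKO Treg cells (log2 fold change -2.45, SE 0.23, edgeR adjusted p = 7.05e-05). The part of such cells in the receptor transcripts was not tested.

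Over the 12 mLN libraries the levels of the 7 genes were compared with each other and with 10026 genes of at least 5 CPM in a group, by Pearson's r of log2 CPM. These values describe libraries that share groups and are given without a p. *Klrb1c* and *Sh2d1b1* moved together (r = 0.922, and 0.750 over the 8 libraries of spleen and pLNs), as did *Klrk1* and *Klrd1* (0.897 and 0.986). *Klrc1* was close to *Klrd1* in spleen and pLNs (0.954) and less so in mLN (0.599). The genes most like *Klrb1c* were *Ntng1* (0.973), *Cd109* (0.973) and *Htr7* (0.970), with 0.596, 0.860 and 0.635 in spleen and pLNs. Those most like *Sh2d1b1* were *Spry2* (0.981), *Sdc2* (0.979) and *Pls3* (0.977), with 0.95, 0.981 and 0.876. *Klrk1* was most like *Xkrx* (0.964), *Gm11346* (0.956) and *Scp2* (0.954), and *Klrd1* most like *Mettl9* (0.975), *Dffb* (0.972) and *Gpr171* (0.970). For the other genes the likeness in mLN often did not carry over. *Klrc1* was most like *Sephs1* (0.910), *Phf7* (0.896) and *Chfr* (0.872), with 0.0866, 0.0100 and 0.847 in spleen and pLNs. *Klrb1f* was most like *Abtb1* (0.890), *Stk32c* (0.883) and *Alcam* (0.874), with -0.326, -0.246 and -0.0368. *Cd160* was most like *Efhd2* (0.934), *Ctsh* (0.919) and *Il1r1* (0.899), with 0.745, 0.0442 and 0.615.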

How the data were processed

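RNA of sorted Treg and CD4+Foxp3- cells was made into TruSeq stranded mRNA libraries and sequenced as single 50 base reads. The authors aligned reads to mm9 with TopHat2 (2.1.1), reported 1 place per read with up to 2 mismatches, and counted them per RefSeq gene by strand with featureCounts (Subread 1.4.3-p1), which gave the deposited raw count tables. The deposited TPM tables were made by the authors from the same reads and were used here only to compare genes with each other. Each of the 2 tissues has its own tables and was fitted separately.

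Counts of the 4 groups of a tissue were fitted together with edgeR (4.0.16, R 4.3.3; TMM, quasi-likelihood test, genes with at least 1 read in total, Benjamini-Hochberg over all genes). A gene was called when its adjusted p was no higher than 0.05 and it changed 1.5-fold or more. The study's tool, DESeq2 (1.42.0), was an alternative. SE is the log2 fold change divided by the square root of its F statistic. The fit was also run on simulated counts with known changes. These changes were set only in well-counted genes, so that the run does not cover calls on few reads. Where a group had no reads, folds are bounds against 3 reads per library, and counting intervals are exact at 95%. P-values measure the spread between replicates of these sorts.

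The 7 genes and all lists of other genes were chosen with earlier results of these data known. The other lists were written from general knowledge of the families. Named from them were the called genes, at most 4 per list and comparison by adjusted p, and fixed partners, ligands and markers whatever their values. Likeness was taken over mLN libraries, naming 3 genes for each of the 7. In mLN each Treg sample deviated from its group mean most like the CD4+Foxp3- sample of the same number and genotype (r of 0.11 to 0.39). This is a check from the data and not from the labels. Between DKO and WT, which share no mice, it also matched the numbers of all CD4+Foxp3- samples (r of 0.0197 to 0.114). Among Treg samples it matched only replicate 3 (0.0855, against 0.0599 and -0.017). The numbers can thus mark shared mice or another shared feature, which was not tested. In spleen and pLNs the DKO Treg and CD4+Foxp3- samples share their mice, but the labels do not tie the numbers to mice.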

Additional observations from a re-analysis of the deposited data

How the results depend on the processing

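The counts of calls were recomputed under 132 alternatives, of which 102 stayed within 1.5 times. The member values were recomputed under 549, of which 15 changed sign, 37 lost a call and 17 gained one. In DKO against WT Treg cells of spleen and pLNs, with 3 genes called, expression filtering left 1 and leaving out one library gave 0 to 2. For the other lectin-like genes, with 3 called, it left 1 and the range was 0 to 3. In CD4+Foxp3- cells of that tissue, with 1 called, a fit of only the compared groups, filtering and the replicate block each gave 0, and leaving out one library 0 to 3. The other lectin-like genes there numbered 1 with the DESeq2 Wald test and 0 to 1 with one library left out. In mLN, 2 to 4 were called in Treg cells with one library left out. In CD4+Foxp3- cells, with 3 called, a fit of only the compared groups gave 0 and leaving out one library 1 to 4. The other lectin-like genes there numbered 0 and 0 to 1. For Treg against CD4+Foxp3- cells of mLN, a fit of only the compared groups called 5 genes in WT instead of 2, and leaving out one library gave 1 to 2 in WT and 3 to 5 in DKO. The cause of these changes was not tested, beyond fewer samples or genes in the fit.

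The replicate block left the counts of Treg against CD4+Foxp3- cells at 4, 4, 2 and 3, gave 4 instead of 5 for the other lectin-like genes in mLN Treg cells, and in DKO against WT cells of spleen and pLNs left 2 of 3 calls in Treg and 0 of 1 in CD4+Foxp3- cells, *Sh2d1b1* being the one lost in each. Libraries of the same number deviated together between the cell types of that tissue (r = 0.336 in DKO and 0.213 in WT). They also did between DKO and WT libraries, which share no mice (r = 0.188 in Treg and 0.221 in CD4+Foxp3- cells). Which number belongs to which mouse is not given in the labels.

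Signs changed for uncalled values when one library was left out. In DKO against WT CD4+Foxp3- cells of spleen and pLNs, the log2 fold change then ranged from -0.59 to 0.78 for *Klrb1f* (with -0.05 among them), from -0.83 to 0.18 for *Klrk1* (0.03), from -0.81 to 0.01 for *Klrd1* and from -0.05 to 1.6 for *Cd160*. In DKO against WT Treg cells of mLN it ranged from -0.12 to 3.77 for *Klrk1* (-0.02). In Treg against CD4+Foxp3- cells of DKO mice it ranged from -1.09 to 0.02 for *Klrb1c* and from -2.44 to 1.32 for *Sh2d1b1* in spleen and pLNs, and in mLN from -0.2 to 0.07 for *Klrb1f* (0.06 and 0.04) and from -0.85 to 0.63 for *Klrc1* (0.09).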
